A study of Mus musculus with 9 samples.

Results

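The 10 genes described here are the gluconeogenic enzymes and glucose carriers of the kidney tubule: Pck1, G6pc, Fbp1, Fbp2 and Pcx among the enzymes, and Slc5a2, Slc5a1, Slc2a1, Slc2a2 and Slc37a4 among the carriers. They were taken by symbol from a table of 32593 mouse genes, and each symbol matched 1 row. The set was put together with earlier results of these libraries known, among them the low Pck1 of 1 group and a difference in Fbp2, so the set was selected on those measured values and they are given as descriptions. Whole kidneys of mice given AngII, the pressor peptide angiotensin II, yielded RNA for 9 libraries, 3 in each of 3 genotype groups. GRPR-AngII mice were CDH16 Cre+/GRPR fl/fl, CDH16KO-AngII mice were CDH16 Cre+/Tmem fl/fl, and AngII mice were Tmem fl/fl with no Cre in their label. The Cdh16 promoter drives Cre in kidney tubule epithelium, so a recombined allele is limited to those cells while the RNA came from the whole organ. The labels write only Tmem for that allele. STING is in the title of the series, and an older symbol of its gene, Sting1, is Tmem173. GRPR-AngII thus differed from AngII in Cre and in the floxed allele at once, and no GRPR fl/fl group without Cre was compared. Effects of Cre and of each allele cannot be told apart in that comparison. CDH16KO-AngII and AngII shared the Tmem fl/fl allele, and no group with Cre and no floxed allele was compared. Effects of Cre itself and of the recombined Tmem allele cannot be told apart there. GRPR-AngII and CDH16KO-AngII carried different floxed alleles, and effects of each cannot be told apart between them. Age, sex, AngII dose and duration are not in the labels, and no library without AngII was compared.

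Gluconeogenesis makes glucose from lactate, glutamine and glycerol, and the kidney does this in the proximal tubule. Pyruvate carboxylase (Pcx) and phosphoenolpyruvate carboxykinase (Pck1) bypass the pyruvate kinase step, fructose-bisphosphatase (Fbp1, with the isoenzyme Fbp2 best known from muscle) bypasses phosphofructokinase, and glucose-6-phosphatase (G6pc) releases glucose from the endoplasmic reticulum after the carrier Slc37a4 has brought glucose 6-phosphate in. The same cells reclaim filtered glucose, mostly through the apical sodium-coupled carrier SGLT2 (Slc5a2) of the early segments and then SGLT1 (Slc5a1), and pass it to the blood through GLUT2 (Slc2a2) and GLUT1 (Slc2a1).

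The stretches before the transcription starts of Pck1, Fbp2, G6pc and Fbp1 are shown, Pck1 and Fbp2 because their levels set the groups apart, and G6pc and Fbp1 as the next enzyme of the pathway and the other bisphosphatase. They are RefSeq sequences on GRCm38.p6, 5' to 3' on the strand of the gene, and end where either the RefSeq window or the deposited gene model starts. Capitals mark matches, on either strand, to the motifs searched. For Pck1 the stretch is chr2:173152823-173153047 on the plus strand, for G6pc chr11:101367466-101367560 on the plus strand, for Fbp1 chr13:62888283-62888532 on the minus strand and for Fbp2 chr13:62858423-62858650 on the minus strand.
Pck1: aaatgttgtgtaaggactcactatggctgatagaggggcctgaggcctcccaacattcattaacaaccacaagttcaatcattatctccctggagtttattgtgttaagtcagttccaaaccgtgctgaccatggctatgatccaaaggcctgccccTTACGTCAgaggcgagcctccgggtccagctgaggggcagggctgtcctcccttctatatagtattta
G6pc: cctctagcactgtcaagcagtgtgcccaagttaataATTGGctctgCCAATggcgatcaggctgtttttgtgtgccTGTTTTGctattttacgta
Fbp1: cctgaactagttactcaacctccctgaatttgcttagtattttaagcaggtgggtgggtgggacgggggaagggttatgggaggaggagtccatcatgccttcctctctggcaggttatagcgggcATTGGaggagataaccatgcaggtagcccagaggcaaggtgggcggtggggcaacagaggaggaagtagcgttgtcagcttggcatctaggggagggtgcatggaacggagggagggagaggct
Fbp2: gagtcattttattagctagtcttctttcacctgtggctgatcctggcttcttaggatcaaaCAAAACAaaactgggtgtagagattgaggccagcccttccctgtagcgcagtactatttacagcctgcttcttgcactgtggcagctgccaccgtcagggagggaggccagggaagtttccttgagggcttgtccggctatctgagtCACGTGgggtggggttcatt

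The Pck1 stretch held the cyclic AMP response element TTACGTCA 93 to 86 bases before the RefSeq start. Of 32851 windows of 250 bases before RefSeq mouse gene starts, 0.447% held TTACGTCA on either strand. The G6pc stretch held 2 CCAAT boxes (33.8% of windows) and, 174 to 168 bases before the start, the FOXO insulin response element TGTTTTG (5.56% of windows). The Fbp2 stretch held TGTTTTG on the other strand 189 to 183 bases before the start and the E-box CACGTG (6.02% of windows) 42 to 37 bases before it. The Fbp1 stretch held 1 CCAAT box. The TATA box TATAAA (12.4% of windows) was found in the G6pc window 29 to 24 bases before the start, outside the stretch printed. The consensus cyclic AMP element TGACGTCA (1.55% of windows) and the FOXO site TGTTTAC (3.17%) were searched too, and no matches overlapped in the windows of these genes. RefSeq windows were found for 9 of the 10 genes, and all letters are a description only, since the data hold no measure of binding.

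Libraries held 40731748 to 60449117 counts, and mitochondria-coded genes took 16.1% to 26.4% of them. Sting1, taken here as the gene of the Tmem allele, was low throughout at 1.77 to 5.33 CPM. Its CDH16KO-AngII and AngII libraries overlapped, so its level does not check the labels. CPM is the count scaled to 1e+06 per library after TMM scaling of the totals. FPKM is the authors' deposited value, scaled to transcript length and library fragments, and is the scale on which genes are compared with each other here. Kidney tubule markers were abundant, with Slc34a1, the phosphate carrier of the proximal tubule, at 3596 to 6366 CPM and Umod of the thick ascending limb at 1428 to 2647 CPM. Adipoq and Plin1 of fat cells and Acta1, Ckm and Myh4 of skeletal muscle summed to at most 0.0851 and 0.229 CPM in any library, so markers of fat and muscle, where Pck1 and Fbp2 are also known, were at or near 0. Of the hepatocyte markers Alb had 3.72 to 10.2 CPM and Cyp3a11 at most 0.339 CPM, while Ttr had 60.9 to 274 CPM. In whole tissue, fewer cells of a type and less RNA per cell cannot be told apart. The sum of 9 proximal tubule markers (without Kap, an abundant androgen-regulated transcript) was 13721, 12970 and 15142 CPM in GRPR-AngII, 10345, 13232 and 9934 CPM in CDH16KO-AngII and 14777, 13444 and 13126 CPM in AngII. It was 0.811 times the AngII mean in CDH16KO-AngII, with 8 of 9 markers lower on average and none called (exact two-sided permutation p = 0.2 for the sum), and the part of this in the results below was not tested.

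CDH16KO-AngII library 2 stood apart from its group in these genes. It was the highest of the 3 CDH16KO-AngII libraries in 8 of the 10 genes, by 1.29 to 3.23 times the mean of the other libraries of its group, and the highest of all 9 libraries in 7: G6pc, Fbp1, Pcx, Slc5a2, Slc5a1, Slc2a2 and Slc37a4. It was the lowest of all 9 in Slc2a1 and in Slc12a1, the sodium carrier of the thick ascending limb, at 617 CPM against 1321 and 1817 CPM in the other CDH16KO-AngII libraries. It also had the lowest mitochondria-coded share, 16.1% against 23.4% and 26.4% in libraries 1 and 3. AngII libraries had 21.5%, 17.2% and 17.4%, and GRPR-AngII libraries 19.2%, 19.1% and 24.6%. Markers of the early proximal tubule (Slc7a7, Slc7a8, Slc4a4 and Slc22a6) summed to 899, 1594 and 945 CPM in CDH16KO-AngII libraries 1, 2 and 3, and those of the thick ascending limb (Umod, Slc12a1 and Cldn16) to 3675, 2258 and 4080.0 CPM. The early sums were 1196, 1257 and 1268 CPM in GRPR-AngII and 1733, 1504 and 1271 CPM in AngII. The thick ascending limb sums were 2888, 2330 and 2324 CPM in GRPR-AngII and 3622, 3814 and 2338 CPM in AngII. CDH16KO-AngII libraries 1 and 3 thus had the lowest early sums of all 9, and library 2 the lowest thick ascending limb sum. The part of segment content in the values of these libraries was not tested. Values without CDH16KO-AngII library 2 are given beside several results below, and there the group consists of libraries 1 and 3 alone.

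Levels per length spanned a wide range. Over the 9 libraries Pck1 averaged 617 FPKM, 46th among 12507 tested genes, followed by Fbp1 at 235, Slc5a2 at 150.2, G6pc at 83.6, Pcx at 70.02 and Slc37a4 at 46.6 FPKM. Slc2a1 (14.0 FPKM), Slc2a2 (13.4 FPKM), Slc5a1 (8.64 FPKM) and Fbp2 (7.32 FPKM) formed a lower tier. Fbp1 exceeded Fbp2 by 14.4 to 93.6 times within a library and Slc5a2 exceeded Slc5a1 by 13.3 to 23.03 times, so in both pairs the same gene led in every library. The mitochondrial carboxykinase gene Pck2 was low, and Pck1 exceeded it by 74.4 to 588 times in FPKM. The 2 basolateral carriers did not differ in order beyond their spread: Slc2a2 over Slc2a1 was 1.01, 0.987 and 0.832 in GRPR-AngII, 0.5495, 2.45 and 0.544 in CDH16KO-AngII and 1.19, 0.866 and 0.967 in AngII. Ranges of Slc5a1 (6.51 to 12.4 FPKM) and Fbp2 (3.5 to 10.3 FPKM) overlapped, as did those of G6pc (62.3 to 133 FPKM) and Pcx (49.96 to 100.5 FPKM).

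**Figure D1:**
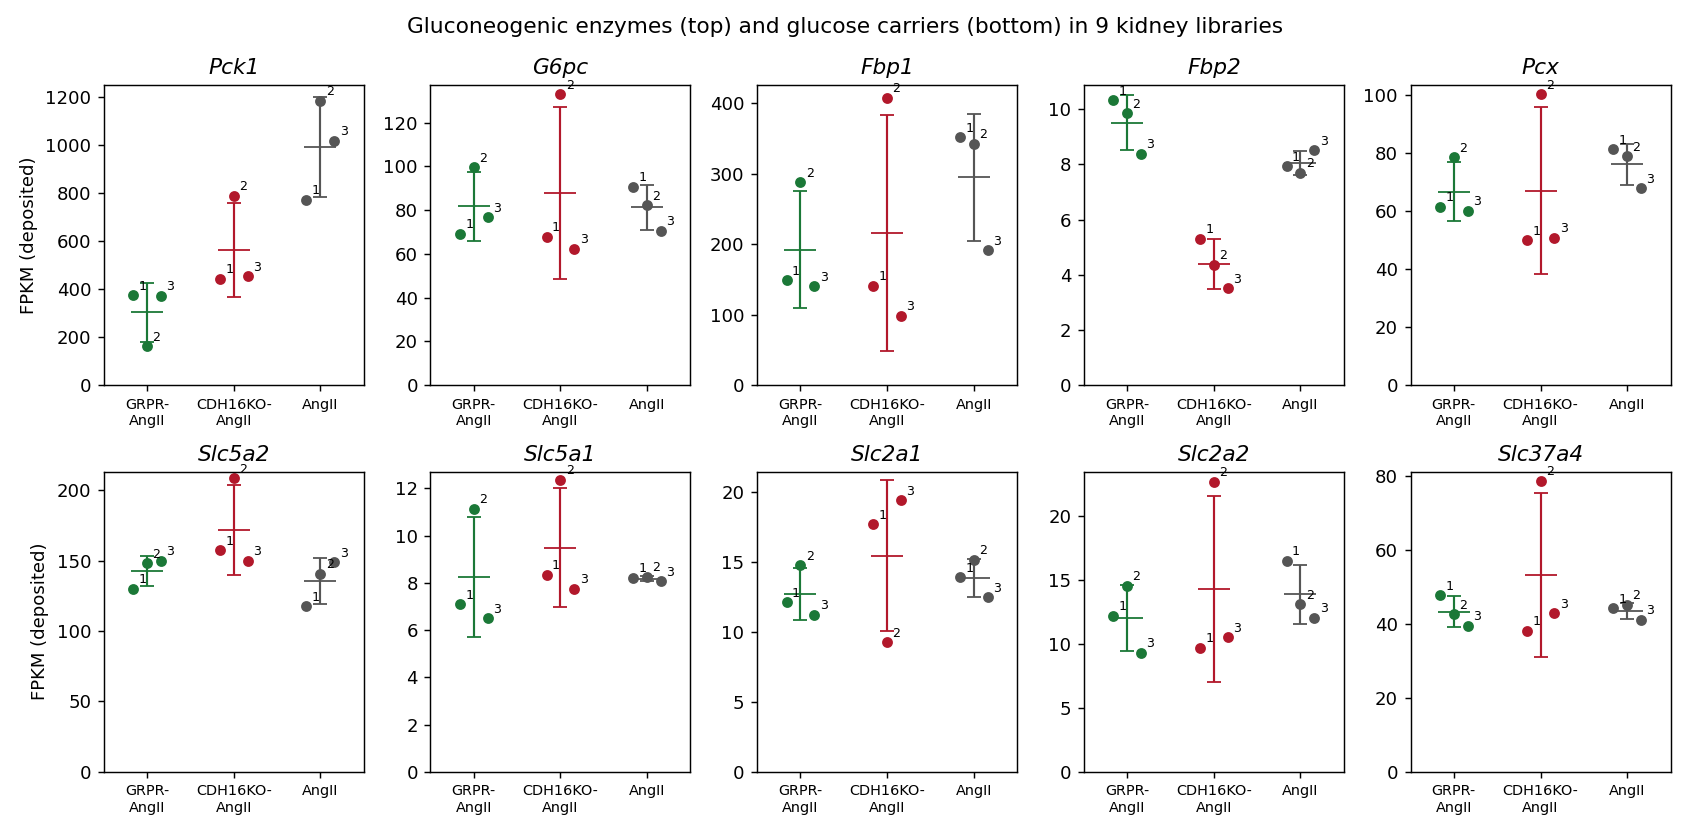
Deposited FPKM (vertical axis from 0, a scale per panel) of the 5 enzymes and 5 carriers in the 9 libraries, with points for libraries numbered by replicate, horizontal bars for group means and error bars for SD (n = 3). GRPR-AngII Pck1 lies between 161 and 375 FPKM, below the CDH16KO-AngII libraries (442 to 787) and the AngII libraries (770.0 to 1182), and CDH16KO-AngII library 2 is the top point of its group in 8 panels.

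Pck1, the enzyme that commits oxaloacetate to glucose and is under hormonal control in liver and kidney, had 1562, 635 and 1705 CPM in GRPR-AngII, 1825, 3132 and 1940.4 CPM in CDH16KO-AngII and 3225, 4724 and 3951 CPM in AngII. All GRPR-AngII libraries lay below all CDH16KO-AngII libraries, and these lay below all AngII libraries, in that scale. That order of 3 groups without overlap was read from the values of Pck1 itself. It was shared by 15 of the 12507 genes (0.12%), which is a description. In FPKM the CDH16KO-AngII and AngII libraries overlapped, because CDH16KO-AngII library 2 at 787 FPKM exceeded AngII library 1 at 770.0 FPKM. Group means were 1301 ± 581 CPM in GRPR-AngII and 2299 ± 724 CPM in CDH16KO-AngII, against 3967 ± 749 CPM in AngII (SD, n = 3 each). The GRPR-AngII mean was 3.05-fold below that of AngII by the edgeR fit, a log2 fold change of −1.61 (SE 0.36). This is a description because the gene was chosen for this contrast, whose groups differ in both Cre and the floxed allele. Leaving out 1 library at a time gave −1.85 to −1.28. Against CDH16KO-AngII the log2 fold change of GRPR-AngII was −0.82 (SE 0.36), and −0.53 (SE 0.35) without CDH16KO-AngII library 2, also a description. CDH16KO-AngII differed from AngII by −0.79 (SE 0.36), short of the threshold (edgeR quasi-likelihood test, Benjamini-Hochberg adjusted p = 0.59, threshold 0.05), and was −1.08 without CDH16KO-AngII library 2.

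Pck1 was also set against G6pc, its partner at the end of the pathway, and against proximal tubule markers. Both scales use the same Pck1 values for which the gene was chosen, so they are descriptions. Pck1 over G6pc in FPKM was 5.41, 1.62 and 4.85 in GRPR-AngII, 6.52, 5.92 and 7.28 in CDH16KO-AngII and 8.48, 14.4 and 14.4 in AngII, with no overlap between any of the groups. Per 1000 CPM of proximal tubule markers, Pck1 had 114, 48.97 and 113 CPM in GRPR-AngII, 176, 237 and 195 CPM in CDH16KO-AngII and 218, 351 and 301 CPM in AngII. On that scale GRPR-AngII stayed below both other groups, while CDH16KO-AngII and AngII overlapped.

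G6pc had 203, 277 and 248 CPM in GRPR-AngII, 197, 373 and 188 CPM in CDH16KO-AngII and 268, 232 and 193 CPM in AngII. Its groups overlapped in all comparisons, with log2 fold changes of 0.13 (SE 0.26) for CDH16KO-AngII and 0.07 (SE 0.26) for GRPR-AngII against AngII. Without CDH16KO-AngII library 2 the first of these was −0.26. Slc37a4, which feeds glucose 6-phosphate to that enzyme, had 166, 140.3 and 151 CPM in GRPR-AngII, 131, 261 and 153 CPM in CDH16KO-AngII and 154, 150.5 and 133 CPM in AngII. The excess of library 2 was again the main departure within a group, and G6pc over Slc37a4 kept within 1.45 to 2.33 in FPKM over all 9 libraries.

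Pcx, which makes oxaloacetate from pyruvate in mitochondria, had 356, 431 and 383 CPM in GRPR-AngII, 286, 554 and 302 CPM in CDH16KO-AngII and 473, 438 and 366 CPM in AngII. Fbp1, the main renal and hepatic bisphosphatase, had 307, 565 and 321 CPM in GRPR-AngII, 289.5, 806 and 209 CPM in CDH16KO-AngII and 731, 680.0 and 369 CPM in AngII. Both had overlapping groups. Fbp1 had the widest spread within a group, with library 2 of CDH16KO-AngII 3.23 times the mean of the other libraries of its group. Its log2 fold change in CDH16KO-AngII against AngII was −0.45 (SE 0.47, edgeR adjusted p = 0.778), and −1.25 (SE 0.35, adjusted p = 0.12) without that library. In GRPR-AngII against CDH16KO-AngII it was −0.13 (SE 0.47), and 0.67 (SE 0.35) without that library, so its direction rests on 1 library.

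Fbp2, the second bisphosphatase gene, behaved apart from Fbp1. It had 18.4, 16.7 and 16.5 CPM in GRPR-AngII, 9.39, 7.43 and 6.43 CPM in CDH16KO-AngII and 14.2, 13.2 and 14.2 CPM in AngII. The 3 groups did not overlap in CPM, with CDH16KO-AngII lowest and GRPR-AngII highest. That order, read from the values of Fbp2 itself, was shared by 16 of 12507 genes (0.128%), which is a description. In FPKM the GRPR-AngII and AngII libraries overlapped, and the CDH16KO-AngII libraries stayed below both. CDH16KO-AngII library 2, high in most of the other genes, lay between its group's other libraries in this one. Fbp2 was 2.22-fold higher in GRPR-AngII than in CDH16KO-AngII, a log2 fold change of 1.15 (SE 0.17), and was the 1 gene of the 10 that edgeR called in that comparison, given as a description because it was chosen there. The call ended in 8 of the 9 fits that left out 1 library (it was kept without CDH16KO-AngII library 1), in the fit of these groups alone and under both scalings to proximal tubule markers, where the log2 fold change was 0.69 with Kap and 0.81 without it. CDH16KO-AngII against AngII gave −0.84 (SE 0.17, edgeR adjusted p = 0.113) and GRPR-AngII against AngII gave 0.31 (SE 0.16, edgeR adjusted p = 0.736). Fbp1 lies 6.33 kb from Fbp2 on chromosome 13 and had overlapping groups, whereas Fancc, a DNA repair gene 427 kb away and named after its values were seen, had the same order of groups.

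SGLT2 (Slc5a2) was the 1 carrier whose CDH16KO-AngII libraries all stood above AngII in CPM. It had 458, 495 and 582 CPM in GRPR-AngII, 550.3, 702 and 542 CPM in CDH16KO-AngII and 416, 475 and 490.1 CPM in AngII. All CDH16KO-AngII libraries exceeded all AngII libraries, by a log2 fold change of 0.38 (SE 0.16) that was not called (edgeR adjusted p = 0.588) and was 0.25 without CDH16KO-AngII library 2. Per 1000 CPM of proximal tubule markers it had 33.4, 38.2 and 38.4 CPM in GRPR-AngII, 53.2, 53.05 and 54.5 CPM in CDH16KO-AngII and 28.2, 35.4 and 37.3 CPM in AngII. On that scale the CDH16KO-AngII libraries were closely grouped and above every library of the other groups, and library 2 no longer stood apart. Slc5a1 (3.99, 4.45 and 3.997 CPM in CDH16KO-AngII, against 2.79, 2.94 and 2.86 CPM in AngII), Slc37a4 and G6pc lay above all AngII libraries on that scale too, as did 21.2% of all tested genes. The gene BC017158 on the opposite strand overlaps Slc5a2 and held 11.9% of its counts; the strand of counting is not stated.

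The other carriers had overlapping groups in CPM in every comparison. Slc5a1, the late-segment SGLT1, had 35.4, 52.7 and 35.8 CPM in GRPR-AngII, 41.2, 58.9 and 39.7 CPM in CDH16KO-AngII and 41.2, 39.5 and 37.6 CPM in AngII. Slc2a2 had 85.5, 96.6 and 72.0 CPM in GRPR-AngII, 67.4, 152 and 75.7 CPM in CDH16KO-AngII and 116, 88.0 and 78.8 CPM in AngII. Slc2a1, expressed along the nephron beyond the early proximal tubule as well, had 51.7, 59.6 and 52.7 CPM in GRPR-AngII, 74.7, 37.7 and 84.8 CPM in CDH16KO-AngII and 59.6, 61.8 and 49.6 CPM in AngII. CDH16KO-AngII library 2 was high in Slc5a1 and Slc2a2 and low in Slc2a1, whose log2 fold change against AngII was 0.20 (SE 0.25) with that library and 0.48 without it. The edgeR adjusted p of Slc5a1, Slc2a1, Slc2a2 and Slc37a4 lay between 0.694 and 0.998 over the 3 comparisons.

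**Figure D2:**
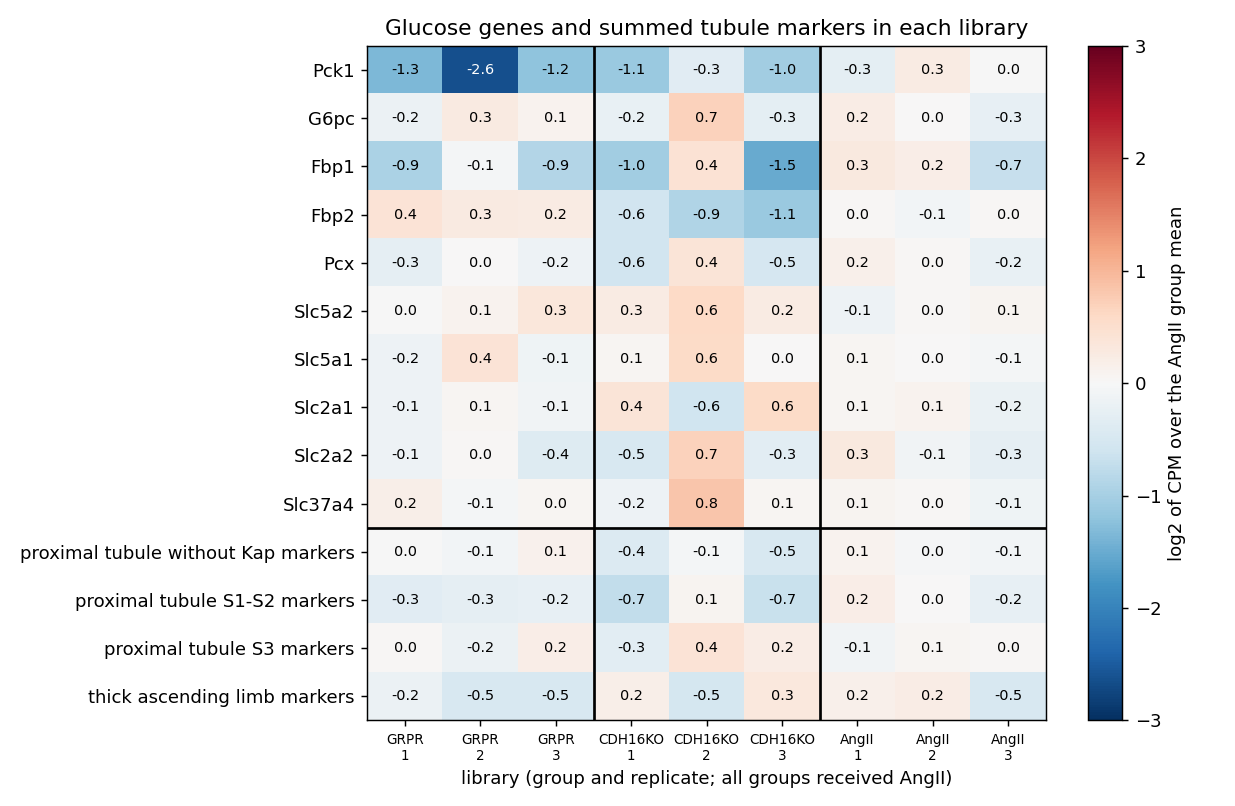
Each cell gives the log2 of a library's CPM over the AngII group mean for the 10 genes (above the line) and for summed tubule markers (below it), with libraries of GRPR-AngII, CDH16KO-AngII and AngII in columns from left to right. Pck1 is blue in all 3 GRPR-AngII libraries, Fbp2 is blue in all 3 CDH16KO-AngII libraries, and CDH16KO-AngII library 2 is red in 7 genes.

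Counted over the set, no gene of the 10 was called in CDH16KO-AngII against AngII by edgeR (2 at an unadjusted p under 0.05, Fbp2 and Slc5a2, against 8.45% of all tested genes), where 0.168% of all tested genes were called. DESeq2 called 1, Fbp2, and limma called 0. In that comparison 1 gene lay above in all libraries (Slc5a2, against 6.65% of all tested genes) and 2 lay below in all (Pck1 and Fbp2, against 5.5%). The low Pck1 and the Fbp2 difference were known when the set was chosen. Counts that include these genes are therefore descriptions and do not measure enrichment of the set. In GRPR-AngII against AngII edgeR called 0 of the 10 (1 at an unadjusted p under 0.05, Pck1, against 6.74% of tested genes) and 0% of all tested genes, DESeq2 called 1 (Pck1) and limma called 0. There Fbp2 lay above in all libraries, against 6.85% of tested genes, and Pck1 below, against 7.2%. In GRPR-AngII against CDH16KO-AngII edgeR called Fbp2, where 0.144% of all tested genes were called. Pck1 and Fbp2 were the 2 at an unadjusted p under 0.05, against 6.24% of tested genes. Fbp2 lay above in all libraries there (4.66% of tested genes) and Pck1 below (5.3%). The median log2 fold change of the 10 was 0.09 in CDH16KO-AngII against AngII, where that of all tested genes was 0.01. It was 0.00 in GRPR-AngII against AngII (−0.01 over all tested genes) and −0.19 in GRPR-AngII against CDH16KO-AngII (−0.01 over all tested genes). The signs of the first and the last of these medians rest on 1 library, since without CDH16KO-AngII library 2 they were −0.33 and 0.17. These comparisons share libraries with each other, and the labels do not say that libraries of a group came from separate animals, so the spread that p-values measure here may be technical.

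**Figure D3:**
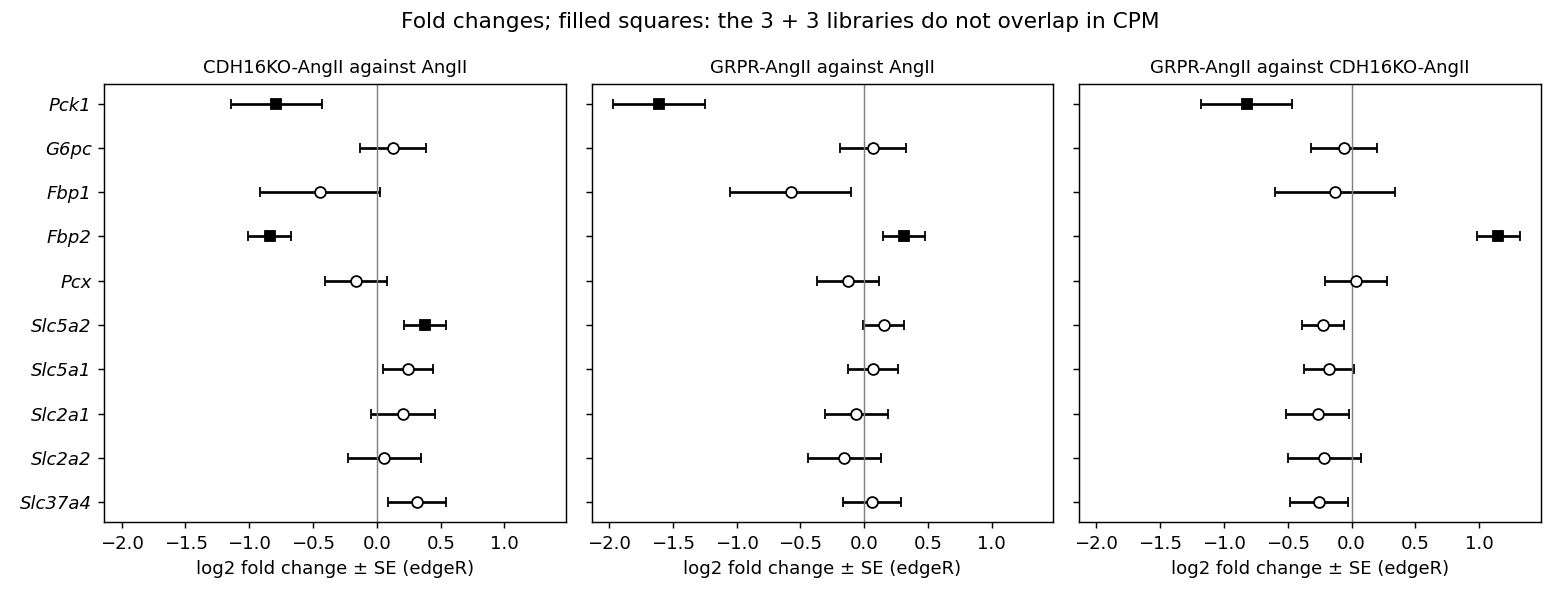
Log2 fold changes (edgeR, horizontal axis) with their SE as error bars for the 10 genes in 3 comparisons, with filled squares where the 3 libraries of one group do not overlap those of the other in CPM. Pck1 is at −1.61 in GRPR-AngII against AngII and Fbp2 at 1.15 in GRPR-AngII against CDH16KO-AngII, and most other values lie within 0.5 of 0.

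Other genes of the pathway were examined in 6 lists of 91 genes, of which 78 were tested. None passed the edgeR threshold in any comparison, and those at an unadjusted p under 0.05 numbered 6 in CDH16KO-AngII against AngII (8.45% of all tested genes), 6 in GRPR-AngII against AngII (6.74%) and 9 in GRPR-AngII against CDH16KO-AngII (6.24%). Of the 78, 2 lay above and 3 below without overlap in CDH16KO-AngII against AngII (6.65% and 5.5% of all tested genes). For GRPR-AngII against AngII 4 lay above and 7 below (6.85% and 7.2%). For GRPR-AngII against CDH16KO-AngII 2 lay above and 5 below (4.66% and 5.3%). In GRPR-AngII against AngII 59 of the 78 were below 0, and the median log2 fold change was −0.15, where that of all tested genes was −0.01. In CDH16KO-AngII against AngII 46 of 78 were negative, with a median of −0.09 (0.01 over all tested genes). In GRPR-AngII against CDH16KO-AngII 45 of 78 were negative, with a median of −0.05 (−0.01 over all tested genes), and without CDH16KO-AngII library 2 these were 31 of 78 and 0.07.

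Among regulators, 18 of 22 tested genes were negative in GRPR-AngII against AngII, with a median of −0.11. Sik1, a kinase that restrains cyclic AMP responses, had a log2 fold change of 0.66 (SE 0.23, edgeR adjusted p = 0.462) in CDH16KO-AngII against AngII, with overlapping libraries. Of the factors most tied to Pck1 in liver, Creb1, Crtc2, Foxo1, Hnf4a, Nr3c1 and Ppargc1a, none was called, and their log2 fold changes in GRPR-AngII against AngII lay between −0.20 and 0.07.

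Among genes of precursor supply, Glud1, the glutamate dehydrogenase that turns glutamine carbon into 2-oxoglutarate, had 276, 220.3 and 252 CPM in GRPR-AngII against 477, 555 and 378 CPM in AngII, without overlap (log2 fold change −0.91, SE 0.23, edgeR adjusted p = 0.629). Slc38a3, the basolateral glutamine carrier, had 68.8, 42.1 and 111 CPM in GRPR-AngII, 88.1, 36.6 and 53.7 CPM in CDH16KO-AngII and 129, 127 and 159 CPM in AngII. Both Cre-positive groups lay below AngII in that gene without overlap, GRPR-AngII by a log2 fold change of −0.91 (SE 0.36, edgeR adjusted p = 0.732) and CDH16KO-AngII by −1.22 (SE 0.36, edgeR adjusted p = 0.319). Pdk4, the kinase that holds pyruvate back from oxidation, had 15.5, 9.84 and 11.7 CPM in CDH16KO-AngII against 22.6, 23.5 and 31.2 CPM in AngII, without overlap (log2 fold change −1.06, SE 0.28, edgeR adjusted p = 0.267).

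Among glycolytic genes, Gapdh, whose enzyme runs in both directions, had 108, 171 and 177 CPM in CDH16KO-AngII against 80.3, 84.96 and 90.8 CPM in AngII, without overlap (log2 fold change 0.83, SE 0.25, edgeR adjusted p = 0.334). Pklr, the pyruvate kinase of liver and proximal tubule, had 20.6, 21.6 and 21.8 CPM in GRPR-AngII against 22.2, 56.9 and 37.5 CPM in CDH16KO-AngII, without overlap (log2 fold change −0.86, SE 0.27, edgeR adjusted p = 0.448), and a log2 fold change of −0.48 (SE 0.22, edgeR adjusted p = 0.388) without CDH16KO-AngII library 2. Of the other sugar carriers, Slc5a9 had 33.8, 32.6 and 38.7 CPM in GRPR-AngII, 25.3, 27.7 and 23.1 CPM in CDH16KO-AngII and 26.7, 24.9 and 26.2 CPM in AngII. Its GRPR-AngII libraries were above all others, without a call (edgeR adjusted p = 0.647 against AngII and 0.289 against CDH16KO-AngII).

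**Figure D4:**
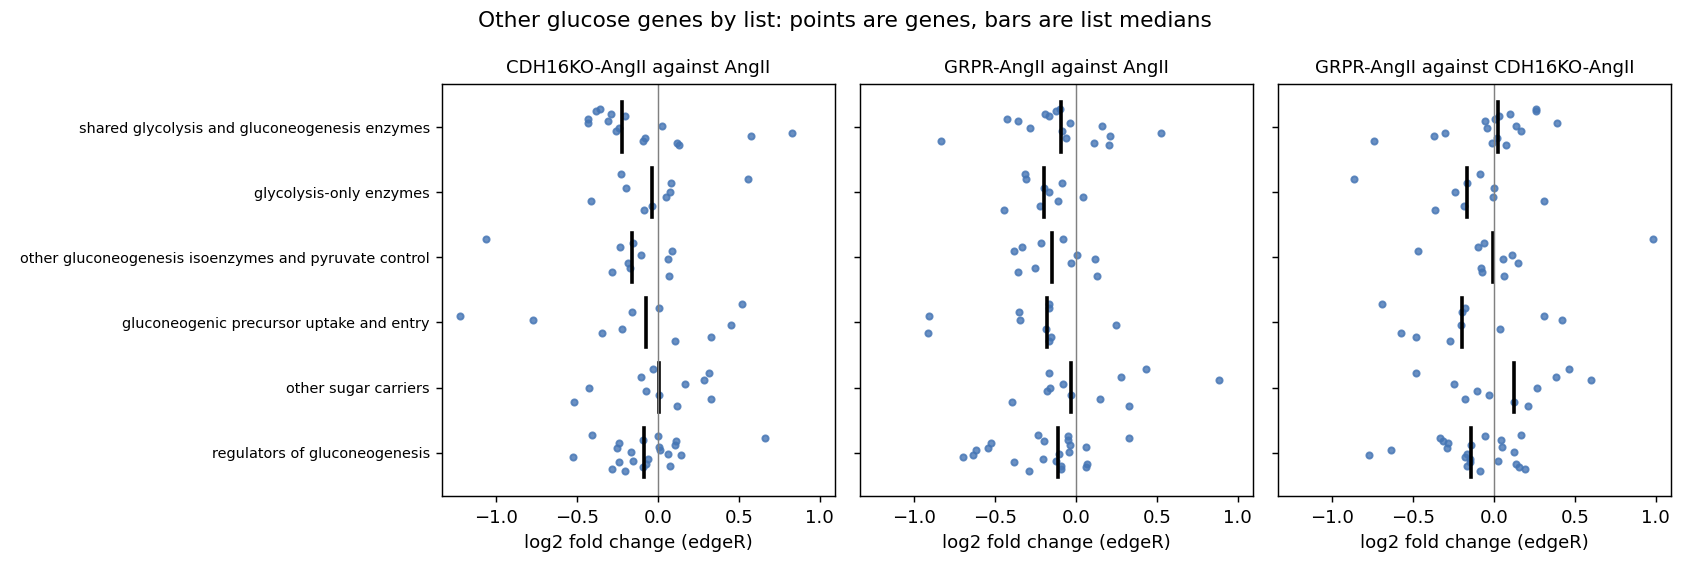
Log2 fold changes (edgeR, horizontal axis) of the tested genes of 6 pathway lists in the 3 comparisons, with a point per gene and a black bar at the median of the list. List medians lie between −0.22 and 0.12, and no point passed the threshold.

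The genes nearest to Pck1 in pattern were Dnase1 (0.36), Ugt2b37 (0.43) and Zfp568 (0.44). Nearness is the root mean square difference of log2(CPM + 0.5) centred on each gene over 9 libraries. Dnase1, a secreted nuclease, had 496, 207 and 668 CPM in GRPR-AngII, 403, 917 and 563 CPM in CDH16KO-AngII and 589, 1023 and 770.2 CPM in AngII, and GRPR-AngII library 2 was its lowest library, as it was for Pck1. The nearest to Fbp2 were Plek2 (0.14), Lrrc28 (0.17) and the mitochondrial acyl-CoA thioesterase gene Acot2 (0.17). Plek2 was low, at 0.979 to 2.91 CPM. Unlike Fbp2, each of these nearest genes had overlapping GRPR-AngII and AngII libraries in CPM. Within the 10, G6pc and Pcx were closest to each other (0.14), Slc2a2 lay 0.16 from Pcx and 0.17 from G6pc, and Pck1 lay at least 0.81 from every other gene.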

How the data were processed

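Kidney RNA was sequenced in 9 libraries. Per the labels' protocols, total RNA from a Qiagen RNeasy kit went into a SMARTER mRNA-Seq kit, and the submitters' processing notes name the builds GRCm38 and mm10. Which aligner and counting program were used, and whether strand was, were not given in the sources used here. The FPKM values were deposited by the authors, rounded to 2 decimals. The counts deposited by the authors are whole numbers with an excess of the value 4 (in AngII library 1, 799 genes against 631 at 3 and 318 at 5), and were taken as rounded expected counts. The fragments behind an FPKM are not known, and intervals of counting error were not computed.

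Genes with FPKM of at least 1 in 3 libraries (12507) were tested with edgeR 4.0.16 in R 4.3.3: quasi-likelihood, TMM scaling, 1 fit of the 9 libraries with a coefficient for each group, Benjamini-Hochberg adjustment over all tested genes and a threshold of 0.05. All 10 genes passed the filter. SEs were derived from fold changes and F statistics. Marker sums were compared by exact two-sided permutation, where 3 libraries against 3 cannot give a p below 0.1. Alternatives used DESeq2 1.42.0, limma 3.58.1 on log2(FPKM + 1), other filters and scalings, a replicate block, 2 groups only and 1 library left out. Scaling without Kap and counts divided by 4 were added after seeing the data. The fit was tested on simulated data for the 3 comparisons. It called 1.49% to 7.46% of 1.5-fold changes, 38.8% to 50.7% of 2-fold changes and 89.4% to 95.5% of 4-fold changes. A gene that was not called may therefore still differ. BLAST+ 2.17.0 in GENCODE M21 found no gene sharing 95% identity over 50% of the longest transcript of any of the 10. Libraries of a group differed by a chi-square of 74.2 to 366 per gene, so none was a copy.

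The 10 genes, the pathway and marker lists and the rule for named genes were chosen with earlier results of these data known. From the lists, the rule named called genes and the 4 of smallest p per comparison, and for Pck1 and Fbp2 the 3 genes of nearest pattern without predicted or clone names. Creb1, Crtc2, Foxo1, Hnf4a, Nr3c1, Ppargc1a, Pck2, Fancc, Khk, Tkfc and Slc5a10 were named outside it, after their values were seen. Some genes that the rule named are not reported here.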

Additional observations from a re-analysis of the deposited data

How the results depend on the processing

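Of 360 fold changes (10 genes, 3 comparisons, 12 alternatives other than leaving out a library), 335 kept direction and side of the threshold. Scaled to proximal tubule markers, GRPR-AngII against CDH16KO-AngII called 1 gene of the 10, Pck1 in place of Fbp2, and GRPR-AngII against AngII called 1 (Pck1). Genes called over the table were 56 (CDH16KO-AngII against AngII), 2 (GRPR-AngII against AngII) and 81 (GRPR-AngII against CDH16KO-AngII). That scaling moved the median log2 fold change of all genes by 0.23, −0.21 and −0.44 in these comparisons in that order, and without Kap by 0.32, −0.01 and −0.33. Without Kap in that scaling the last comparison called 0 of the 10 and 32 genes, CDH16KO-AngII against AngII 37 genes, and GRPR-AngII against AngII 0 of the 10 and 0 genes, so the call of Pck1 ended there. DESeq2 called 1 of the 10 in each comparison with AngII and 210, 54 and 175 genes in CDH16KO-AngII against AngII, GRPR-AngII against AngII and GRPR-AngII against CDH16KO-AngII. No filter gave 41 genes in the last, and the fit of those groups alone 9 genes and 0 of the 10.

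Signs turned as follows, with no value called; the cause was not tested. In CDH16KO-AngII against AngII, Pcx was 0.023 and 0.11 under marker scaling with and without Kap, and Slc2a2 −0.047 and −0.055 by limma with pseudocounts of 1 and 0.1 and −0.0064 with the replicate block. In GRPR-AngII against AngII, marker scaling gave G6pc −0.14, Slc5a2 −0.074, Slc5a1 −0.11 and Slc37a4 −0.16, and limma gave Slc5a1 −0.023 and −0.029 and Slc37a4 −0.0107 and −0.0109. In GRPR-AngII against CDH16KO-AngII, Fbp1 was 0.027 and 0.028 by limma and 0.042 with the replicate block, and Pcx −0.36 and −0.24 under marker scaling with and without Kap. Same-numbered libraries deviated together with correlations of −0.12 to 0.30, and the labels do not say whether a number marks a batch. The replicate block changed no call of the 10.

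Leaving out 1 library gave 0 to 42, 0 to 2 and 0 to 50 genes called in CDH16KO-AngII against AngII, GRPR-AngII against AngII and GRPR-AngII against CDH16KO-AngII, and 0 to 1 of the 10 in the last. In CDH16KO-AngII against AngII, fold changes ran from −0.26 to 0.30 for G6pc, −0.53 to 0.0071 for Pcx, −0.022 to 0.48 for Slc2a1, −0.40 to 0.27 for Slc2a2 and −0.0397 to 0.50 for Slc37a4. In GRPR-AngII against AngII they ran from −0.042 to 0.19 for G6pc, −0.15 to 0.17 for Slc5a1, −0.15 to 0.001 for Slc2a1, −0.27 to 0.0226 for Slc2a2 and −0.0034 to 0.12 for Slc37a4. In GRPR-AngII against CDH16KO-AngII they ran from −0.47 to 0.67 for Fbp1, −0.23 to 0.33 for G6pc, −0.13 to 0.41 for Pcx, −0.39 to 0.0295 for Slc5a1, −0.42 to 0.24 for Slc2a2 and −0.44 to 0.10 for Slc37a4. With 3 libraries a group, fold changes of the size of most of these cannot be told from the spread.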

Other observations

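Genes of fructose use followed CDH16KO-AngII library 2 as well. Khk, the kinase that starts fructose breakdown, had 419, 900.5 and 598 CPM in the CDH16KO-AngII libraries. Tkfc, the kinase of glyceraldehyde, had 204, 606 and 416 CPM there. Library 2 was the highest of all 9 libraries in both. Neither was called in any comparison by edgeR. In GRPR-AngII against AngII, Khk had 524, 555 and 588 CPM against 384, 515 and 505 CPM, without overlap (log2 fold change 0.25, SE 0.25, edgeR adjusted p = 0.823).

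Slc5a10, a sodium-coupled carrier of mannose and fructose, varied most within groups among the sugar carriers named, with 105, 375 and 194 CPM in GRPR-AngII, 84.7, 237 and 123 CPM in CDH16KO-AngII and 131, 133 and 100.1 CPM in AngII.

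On chromosome 13, 5 other tested genes lay within 1000 kb of Fbp2. Fancc had 12.2, 10.3 and 11.5 CPM in GRPR-AngII, 1.22, 3.69 and 2.79 CPM in CDH16KO-AngII and 5.11, 5.72 and 7.31 CPM in AngII. Its log2 fold change in GRPR-AngII against CDH16KO-AngII was 2.14 (SE 0.35), short of a call (edgeR adjusted p = 0.0555). Fancc overlaps Aopep on the opposite strand, which had overlapping groups, and no source used here says whether counting used strand.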
